A study of Arabidopsis thaliana with 4 samples.

Results

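The SAUR genes (small auxin-up RNA) of Arabidopsis thaliana were taken as a list of 54 loci, and a locus was measured where a probe set of the array was annotated to it alone. Of these 54 loci, 1 met that rule, AT2G18010, which the reference gene table also calls SAUR10. The other 53 had no such probe set among the annotation used here and were not analysed. Total RNA came from aerial parts at 2 weeks of age, with 2 arrays of the activation-tagged line jaw-d and 2 arrays of Columbia plants, labelled Control. In jaw-d the tag raises the microRNA miR319a, which acts on transcripts of a class of TCP factors, brakes on the growth of leaves. The labels give no treatment and no further alleles, and they leave unsaid whether the arrays within a group stem from separate plants. The p-values below therefore reflect no more than the array-to-array spread, possibly a technical one. In whole aerial parts, fewer cells expressing a gene and less RNA per cell cannot be told apart.

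SAUR genes encode short, plant-specific proteins and make up the largest family of early auxin response genes. Auxin brings about the removal of Aux/IAA repressors, which frees ARF transcription factors to raise SAUR transcripts within minutes. Several SAUR proteins inhibit PP2C.D phosphatases, which otherwise switch off the proton pumps of the plasma membrane, and so promote acidification of the cell wall and cell expansion. Some SAUR genes have been reported to lie downstream of the TCP class that miR319 lowers. SAUR10 itself is known as an auxin and brassinosteroid responsive gene that promotes organ growth and is repressed by the MADS-box factor FRUITFULL.

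SAUR10 was close to the background of the array in both groups, and no difference between them was detectable. Its deposited intensity, in the linear units of the array, was 335 and 220 on the jaw-d arrays, against 283 and 192 on the Control arrays. Each group held 1 higher and 1 lower array, and the groups overlapped. After quantile normalization the values were 326 and 221 in jaw-d, against 259 and 216 in Control, which still overlapped. The means on this scale were 273 ± 74.7 units in jaw-d and 237 ± 29.9 units in Control (SD, n = 2 each). On the log2(value + pseudocount) scale, with a pseudocount of 302.3 units, SAUR10 differed by 0.09 ± 0.14 (SE), jaw-d minus Control. The adjusted p of limma was 0.81, and the 95% interval of the difference ran between -0.26 and 0.44. This scale understates changes of dim probe sets. With the pseudocount at 0.1 times its value the difference of SAUR10 was 0.16, and without jaw-d 1, the brightest of the 4 arrays for this gene, it was -0.04.

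**Figure D1:**
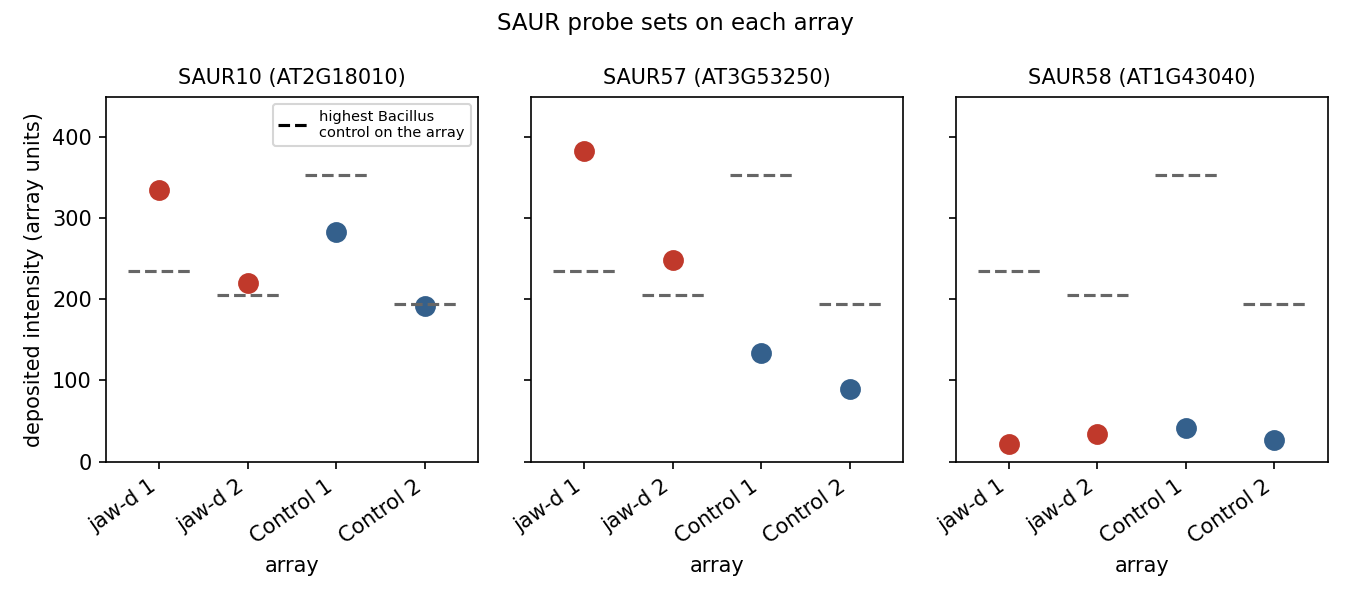
Deposited intensity (array units, linear axis) of 3 SAUR probe sets on each array, jaw-d in red and Control in blue, 1 point per array. Dashed lines mark the highest of the 27 Bacillus control probe sets on that array. SAUR10 lies above the dashed line on both jaw-d arrays and below it on both Control arrays, by little on jaw-d 2 and Control 2, SAUR57 is higher on both jaw-d arrays (383 and 249) than on both Control arrays (134 and 89.7), and SAUR58 lies far below the lines.

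The background was gauged with 27 control probe sets for Bacillus subtilis transcripts, which match no plant gene. SAUR10 was brighter than all 27 of them on both jaw-d arrays, where the highest stood at 235 and 205 units. On each Control array 1 of the 27 was brighter than SAUR10, at 353 and 194 units. The median Bacillus probe set was at 52.8 and 50.7 units on the jaw-d arrays, against 70.9 and 66.7 units on the Control arrays, so that SAUR10 stood above the middle of the background on every array. It was brighter than or equal to 26.3% and 19.9% of all probe sets on the jaw-d arrays, against 22.2% and 19.6% on the Control arrays. A probe set with both group means at or under 353 units, the highest Bacillus value on any array, is called near background below. That held for 25.6% of all 22746 probe sets tested, SAUR10 among them.

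**Figure D2:**
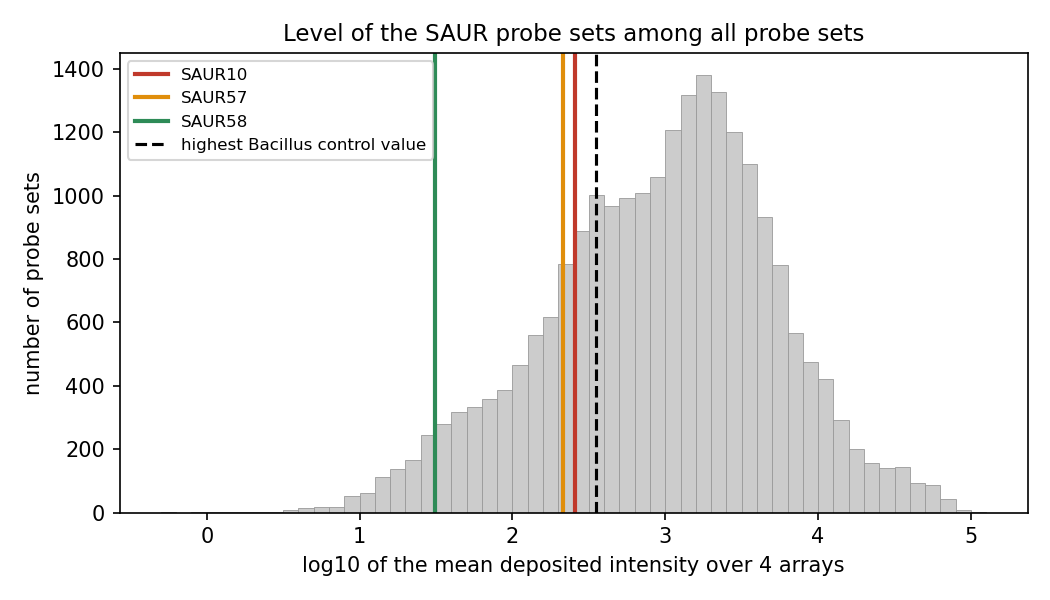
Number of probe sets (vertical axis) by the log10 of their mean deposited intensity over the 4 arrays (horizontal axis). Coloured lines mark the 3 SAUR probe sets and the dashed line the highest Bacillus control value, 353 units; all 3 SAUR probe sets lie left of it.

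Over all probe sets, 4.19% passed the test at an adjusted p under 0.05, 1.64% higher and 2.54% lower in jaw-d. Of the measured members of the list, 0 of 1 passed in either direction (limma; the unadjusted p of SAUR10 was 0.557), and a single gene cannot be read against that background. Among the 5819 probe sets near background, 0.498% passed and the middle 90% of differences lay between -0.32 and 0.33, a range that holds the difference of SAUR10. The median difference over all probe sets was 0.01. Before adjustment 4523 probe sets, 19.9% of those tested, had a p under 0.05.

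Tandem arrays of SAUR genes could not be compared. The list holds 31 loci in 6 such arrays. They run over 8 loci on chromosome 1 (AT1G29420 to AT1G29510, with SAUR63), 3 on chromosome 2 (AT2G21200 to AT2G21220) and 4 on chromosome 3 (AT3G03820 to AT3G03850, SAUR26 to SAUR29). On chromosome 4 there are 6 (AT4G34760 to AT4G34810) and 4 (AT4G38825 to AT4G38860, with SAUR15), and on chromosome 5 there are 6 (AT5G18010 to AT5G18080, with SAUR19 to SAUR24). Of the 31 loci, 0 had a probe set annotated to them alone here, and SAUR10 is 1 of the 23 loci outside the arrays. Under this annotation the values therefore cannot be read for the SAUR19 to SAUR24 group, whose members are known to promote cell expansion. Probe sets of the 31 loci may be among the 8730 unnamed ones or the 503 with several genes, which were not assigned to a locus here.

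The reference table gives SAUR names to 80 genes, and 2 of those outside the list had a probe set of their own: AT3G53250 (SAUR57) and AT1G43040 (SAUR58). They were added after the annotation had been seen, and by name alone. SAUR57 had deposited intensities of 383 and 249 units in jaw-d, against 134 and 89.7 units in Control. Both jaw-d arrays lay above both Control arrays, a separation that 49% of all probe sets showed in one direction or the other. SAUR57 was brighter than the highest Bacillus probe set on both jaw-d arrays and dimmer than it on both Control arrays. After quantile normalization SAUR57 averaged 311 ± 86.8 units in jaw-d and 113 ± 12.2 units in Control (SD, n = 2 each). The log2 difference was 0.56 ± 0.14 (SE) and limma gave an unadjusted p of 0.00718. The adjusted p was 0.0914, so SAUR57 did not pass the test. Both of its group means were near background, and its difference lay above the middle 90% of near-background probe sets (-0.32 to 0.33). The difference of SAUR57 was 1.23 with the pseudocount lowered to 0.1 times and 0.20 with it raised to 4 times. SAUR58 had deposited intensities of 21.7 and 34.3 units in jaw-d, against 40.9 and 27.1 units in Control, below the Bacillus median on every array. Its groups overlapped, and the log2 difference of -0.02 ± 0.08 (SE, adjusted p 0.919 in limma) carries no direction.

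Probe sets of different genes differ in brightness for the same amount of RNA, so no level of one SAUR gene is set against another here. Over the 3 SAUR genes with a probe set, 0 passed the test (limma; 1 had an unadjusted p under 0.05, against 19.9% of all probe sets), 2 differences were above 0 and 1 below, and all 3 were near background.

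Most partners of SAUR genes in the auxin pathway also had no probe set annotated to them alone. Of 103 loci in 9 lists, 19 had a probe set of their own. Of these 19, 2 rose in jaw-d, 0 fell and 17 did not pass, against 1.64% higher and 2.54% lower over all probe sets. The lists were chosen with earlier results of these data known, so the shares in this paragraph are a description only. The lists of TIR1/AFB receptors, ARF transcription factors, auxin transport, plasma membrane proton pumps, and light and brassinosteroid regulators had 0 measured members. Probe sets of these genes may be among the 8730 unnamed ones or the 503 with several genes. Of the PP2C.D phosphatases, the known targets of SAUR proteins, 4 of 9 were measured and 0 passed (limma; 1 of 4 had an unadjusted p under 0.05, against 19.9% of all probe sets). PP2C.D2 had 6256 and 5930 deposited units in jaw-d, against 4579 and 5028 units in Control (log2 difference 0.31, adjusted p 0.0938), and PP2C.D3, PP2C.D4 and PP2C.D6 differed by between -0.09 and -0.06. The GH3 family holds enzymes that conjugate auxin to amino acids. Of 5 measured GH3 genes, 3 had an unadjusted p under 0.05 (limma), against 19.9% of all probe sets. GH3.3 stood at 0.62 (adjusted p 0.0625), GH3.9 at 0.03 and GH3.1, near background, at -0.28, and none of these passed. GH3.5 (log2 difference 0.72, adjusted p 0.0339) and GH3.17 (0.79, adjusted p 0.049) rose. With the pseudocount at 4 times, GH3.17 did not pass in limma (adjusted p 0.0629) and GH3.5 did (adjusted p 0.0445). Both calls ended with the replicate number as a block, without the variance trend and with any 1 array left out. None of 7 measured Aux/IAA genes passed (limma; 1 of 7 had an unadjusted p under 0.05, against 19.9% of all probe sets). Their median difference was -0.06, with 2 differences above 0 and 5 below. The 2 with the smallest p were those above 0, IAA30 at 0.57 (adjusted p 0.0878) and IAA20, near background, at 0.32 (adjusted p 0.442). IAA18, IAA29, IAA31, IAA33 and IAA34 lay between -0.23 and -0.05. IAA31, IAA33 and IAA34 were near background as well, which makes 4 of the 7 Aux/IAA genes. None of 3 measured YUC genes of auxin synthesis passed either (limma; 1 of 3 had an unadjusted p under 0.05, against 19.9% of all probe sets), with YUC4 at 0.56 (adjusted p 0.0852) and YUC6 at 0.56 (adjusted p 0.257). The median difference of the 19 genes was 0.03.

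**Figure D3:**
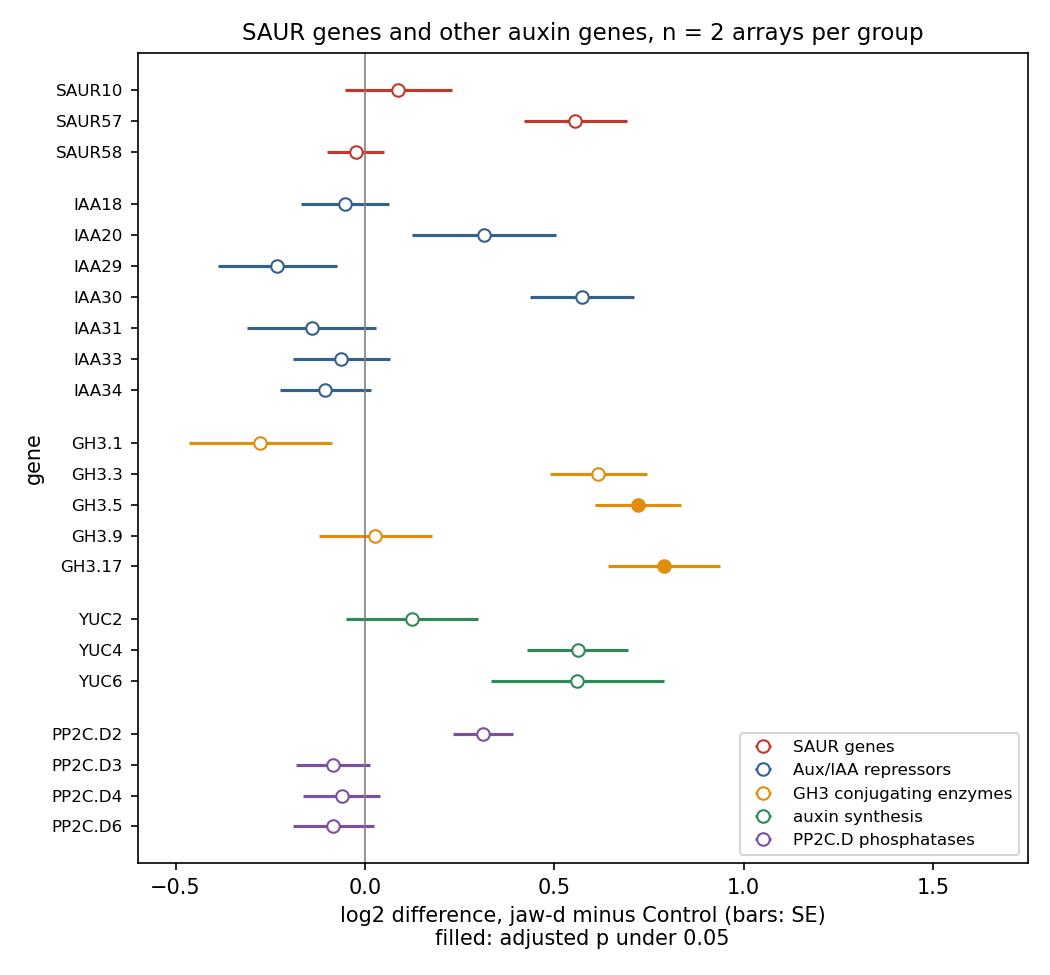
Log2 difference, jaw-d minus Control, on the log2(value + pseudocount) scale for the 3 SAUR genes and 19 other auxin genes with a probe set of their own; points are fitted differences, bars the SE, n = 2 arrays per group. Filled points passed an adjusted p under 0.05. The filled points are GH3.5 and GH3.17, and the 3 SAUR points are open.

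Markers were read beside the tissue label, but too few were measured to test it. The green tissue genes RCA, LHCB4.1 and LHCB4.2 summed to 170831 and 172298 deposited units in jaw-d, against 209339 and 184712 in Control, with 3 of 10 markers measured. Of 11 root markers 2 were measured, EXPA7 near background and EXPA18 above it. EXPA18 had 391 and 486 units in jaw-d, against 612 and 509 in Control. EXPA7 had 86.7 and 520 units in jaw-d, against 299 and 317 in Control, so its groups overlapped. In limma 0 of these 5 markers passed the test (1 of 5, LHCB4.2, had an unadjusted p under 0.05, against 19.9% of all probe sets). Their part in the values of SAUR10 was not tested.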

How the data were processed

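The deposited values are linear microarray intensities, 1 for each probe set on each array. Their mean after trimming 2% at each end was 2500 on all 4 arrays, so they had been scaled before deposit. The sources used here do not name the software. The 64 control probe sets were left out, the other 22746 were quantile normalised, and log2(value + 302.3) was taken, the pseudocount being the 25th percentile of all deposited values. Each probe set was fitted with limma (version 3.58.1, R version 4.3.3, lmFit and eBayes with a mean-variance trend, 2 residual degrees of freedom per probe set, two-sided) with Benjamini-Hochberg adjustment across the whole table and 0.05 as the threshold. The script was tested on simulated data. The small number of arrays limits the precision.

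Of the 22746 probe sets, 13513 had 1 gene, 503 several and 8730 were unnamed here. Gene IDs matched 13436 to the reference table (TAIR10.1, used for names only), and a locus name matched 48 more, among them SAUR10, SAUR57 and SAUR58. Every SAUR gene with a probe set is described, and from each auxin list the genes that passed and those with the smallest p. Members and lists were chosen with earlier results of these data known.

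Same-numbered arrays deviated from their group means with a correlation of -0.02, so the numbers were not taken as pairs. No median over members or tandem arrays was formed, as there was 1 measured member and none in an array. Alternatives were the scaling, pseudocount, filter on dim probe sets, variance trend, replicate block and leaving out each array.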

Additional observations from a re-analysis of the deposited data

How the results depend on the processing

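SAUR members called numbered 0 higher and 0 lower under each alternative that kept SAUR10. The filter for probe sets above 353 units on at least 2 arrays removed SAUR10, SAUR57 and SAUR58, so it gave them no value. The difference of SAUR10 ran between -0.04 and 0.22 (adjusted p 0.618 to 0.99), and was -0.044 without jaw-d 1. That of SAUR58 ran between -0.134 (pseudocount at 0.1 times) and 0.002 (without jaw-d 1), was -0.121 when centred and -0.048 to 0.002 with 1 array left out, and that of SAUR57 kept its sign throughout with adjusted p between 0.0973 and 0.29. No gene of these had a second probe set. Over all probe sets, 374 were called higher and 578 lower. The counts were 248 and 978 after median centring of each array, 983 and 1138 with the filter, 14 and 51 without the trend, and 157 and 309 with the replicate block. Higher ones made up 39.3% of the calls, 20.2% when centred, 21.5% without the trend. Leaving out 1 array gave 0 higher and 0 to 12 lower: 12 without jaw-d 1, 11 without jaw-d 2 and 0 without either Control array (3347 to 4381 at an unadjusted p under 0.05). Genes of the auxin lists called higher numbered 2, against 1 with the pseudocount at 4 times, 5 with the filter, 0 without the trend, 0 with the replicate block and 0 with any array left out. The filter tested 16754 probe sets; other causes were not tested.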
